A study of Mus musculus with 28 samples.

Results

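The genes described are 7 of the mouse major histocompatibility complex (MHC) class II pathway: the chains H2-Aa, H2-Ab1 and H2-Eb1, the invariant chain Cd74, the peptide loading subunits H2-DMa and H2-DMb1, and the transactivator Ciita. They were taken by symbol from a table of 54354 genes, and all 7 were found and passed the filter on low counts, which left 12495 tested genes. RNA came from the small intestine of mice carrying Lgr5-GFP, a fluorescent reporter of the stem cell receptor gene Lgr5, which all groups share. The 28 libraries form 4 groups of 7: Lgr5-high cells on a cystine diet, Lgr5-high cells on a control diet, Lgr5-low cells on the cystine diet and Lgr5-low cells on the control diet. Cystine is formed by the joining of a pair of cysteine molecules. The labels give neither age nor sex, and do not say that each library is a mouse of its own, so each p-value reflects only how far the libraries scatter, which may be technical. The labels' protocol speaks of RNA from organoids, whereas the design text speaks of populations isolated from small intestine.

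Class II molecules are pairs of an alpha and a beta chain that display peptides from the endosome to CD4 T cells. The chains assemble with the invariant chain, which blocks the groove and guides them to the endosome, where the DM pair exchanges its remnant for a peptide. Dendritic cells, B cells and macrophages carry class II constitutively, and epithelial cells, including intestinal stem cells, can carry it as well, in particular after interferon gamma, which acts through Ciita. Ciita does not bind DNA itself: it docks on a set of factors (RFX, CREB and NF-Y) held at the X and Y boxes of class II promoters.

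Those boxes are shown because they are what the class II promoters have in common. RefSeq promoter windows on GRCm38.p6 were at hand for 4 of the 7 genes (H2-Aa, H2-Eb1, H2-DMb1 and H2-DMa, the last with a pair of windows), and the 250 bases before each start were searched. Capitals mark GNAACT, letters of the X box, and GATTGG, letters of the Y box (the reverse of CCAAT), with 20 bases on each side. H2-Aa lies on the minus strand at chr17:34287847-34287924 and H2-Eb1 on the plus strand at chr17:34305756-34305832, both printed 5′ to 3′.
H2-Aa: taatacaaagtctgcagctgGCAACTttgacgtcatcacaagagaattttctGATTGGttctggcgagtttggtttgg
H2-Eb1: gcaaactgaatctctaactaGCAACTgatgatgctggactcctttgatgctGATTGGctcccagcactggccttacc

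The starts of the boxes lay 32 bases apart in H2-Aa and 31 apart in H2-Eb1, and H2-DMb1 held the same pair 32 bases apart. In H2-Aa the X letters began 81 bases and the Y letters 49 bases before the start, and in H2-Eb1 the distances were 91 and 60 bases. The motifs overlap no other searched motif and were looked for on both strands. GATTGG alone was present in 14.6% of 32851 promoter windows and GNAACT alone in 37.3%. Both at a spacing of 31 to 32 bases were present in 12 windows (0.0365%), of 12 genes, and besides the members these included H2-Eb2, another class II beta chain gene. The letters and the spacing were read off these promoters, so the 3 member matches are a description. Neither H2-DMa window held the pair.

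Library totals ran from 2.75 to 21.5 M counts, with medians of 5.32, 15.4, 14.8 and 7.30 M counts in Lgr5-high cystine, Lgr5-high control, Lgr5-low cystine and Lgr5-low control libraries. Levels below are CPM, the usual measure of counts relative to library size, here with TMM factors. The limits given at low counts cover counting error only. The intervals of the fold changes come from the fit and also reflect how far the libraries scatter. Lgr5-high libraries carried more stem cell transcripts: 7 marker genes summed to 3919 to 7595 CPM in Lgr5-high cystine and 3490 to 7139 CPM in Lgr5-high control libraries, against 992 to 2313 CPM in Lgr5-low cystine and 714 to 2743 CPM in Lgr5-low control libraries. By the level of Xist, control replicates 1 to 3 and cystine replicates 1 and 2 of both populations fell in a male class, and the other libraries in a female class. In bulk samples, fewer cells of a type and less RNA per cell cannot be told apart.

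Class II transcripts were present in every library of all 4 groups. Per kilobase of exon, H2-DMa (25.8 CPM per kilobase, mean of 28 libraries) and H2-Aa (25.05) had the highest levels, followed by H2-Eb1 (17.9), H2-Ab1 (14.5) and Cd74 (12.0). H2-DMb1 (3.92) and Ciita (0.317) were the lowest. Here and below, the length was the union of all annotated exons of a gene, not that of the expressed transcript. The order and the ratios per kilobase depend on this choice, and others were not tried. By mean CPM, H2-Aa stood above 91.1% and H2-DMa above 90.6% of tested genes, and Ciita above 25.7%.

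H2-Aa, the alpha chain of the A molecule, lies on chromosome 17 (34282744 to 34287823, GRCm38). Its lowest, median and highest levels were 17.1, 130.3 and 209 CPM in Lgr5-high cystine libraries and 26.65, 79.0 and 219.6 CPM in Lgr5-high control libraries. In Lgr5-low cells they were 31.0, 51.3 and 182 CPM on cystine diet and 16.1, 74.35 and 189.6 CPM on control diet. Of the Lgr5-high cystine libraries 6 lay at 128 CPM or above and replicate 1 stood alone at the low end. All 4 groups overlapped, with means of 131 ± 58.0, 97.1 ± 63.9, 68.3 ± 53.9 and 83.95 ± 53.5 CPM in the same order (SD, n = 7 each).

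H2-Ab1, the beta chain that pairs with H2-Aa, lies beside it on chromosome 17 (34257689 to 34269419). It ran from 13.0 to 58.7 CPM (median 41.6) in Lgr5-high cystine and from 11.0 to 67.8 CPM (median 25.8) in Lgr5-high control libraries. In Lgr5-low libraries it ran from 5.46 to 65.6 CPM (median 26.8) on cystine diet and from 18.0 to 87.5 CPM (median 42.0) on control diet. The 4 groups overlapped here too, and control replicate 6 was the highest control library in both populations.

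H2-Eb1, the beta chain of the E molecule, lies on chromosome 17 (34305867 to 34316674). Its levels were 4.30 to 79.95 CPM (median 42.6) in Lgr5-high cystine, 12.3 to 68.4 CPM (median 39.4) in Lgr5-high control, 2.87 to 40.8 CPM (median 21.8) in Lgr5-low cystine and 3.18 to 93.7 CPM (median 32.6) in Lgr5-low control libraries. H2-Ea, the alpha chain that would pair with it, had 0 counts in all 28 libraries, as had H2-Eb2 and H2-Oa, a subunit of the DM inhibitor. A count of 0 allows at most 0.00979 CPM over the summed libraries (3 counts). H2-Ob, the other subunit of that inhibitor, had counts in 5 libraries and H2-DMb2 in 3, with at most 20 and 19 counts in a library. H2-DMb1 and H2-DMb2 are close copies, so their values depend on how reads were divided between them.

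Cd74, the invariant chain, is on chromosome 18 (60803848 to 60812652). It had 13.1 to 51.3 CPM (median 27.3) in Lgr5-high cystine libraries and 8.71 to 36.4 CPM (median 16.0) in Lgr5-high control libraries. In Lgr5-low cells it had 2.30 to 26.9 CPM (median 17.1) on cystine and 8.59 to 43.5 CPM (median 15.8) on control diet. Per kilobase of exon, H2-Aa exceeded Cd74 in 24 of 28 libraries, with a median ratio of 2.21 (range 0.574 to 5.97).

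H2-DMa and H2-DMb1 encode the subunits of the DM pair, and both are on chromosome 17 (34119541 to 34139101 and 34153072 to 34160230). H2-DMa had 52.0 to 119 CPM (median 92.1) in Lgr5-high cystine, 62.7 to 161 CPM (median 89.2) in Lgr5-high control, 31.3 to 132 CPM (median 69.3) in Lgr5-low cystine and 56.0 to 130.1 CPM (median 94.3) in Lgr5-low control libraries. H2-DMb1 had 0.704 to 9.59 CPM (median 6.01), 1.95 to 13.2 CPM (median 6.82), 0 to 19.3 CPM (median 4.99) and 1.97 to 15.1 CPM (median 6.004) in the same order of groups. The count of 0 was in Lgr5-low cystine replicate 1, where it allows up to 0.730 CPM. Although their proteins form a pair, H2-DMa exceeded H2-DMb1 per kilobase in all 27 libraries with H2-DMb1 counts, by a median of 6.69 times (range 2.36 to 55.6). H2-DMa overlaps Brd2 on the opposite strand over 3094 bases, and whether the counting used strand is not stated. The within-group SD of its log2 level was 0.52, lower than in the other members (0.87 to 1.48) and below the median of all tested genes, 0.88.

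Ciita is on chromosome 16 (10480059 to 10528418) and overlaps Dexi on the opposite strand. It had 0 to 4.44 CPM (median 1.87) in Lgr5-high cystine, 0.225 to 8.35 CPM (median 2.99) in Lgr5-high control, 0.287 to 4.69 CPM (median 2.47) in Lgr5-low cystine and 0.593 to 13.5 CPM (median 2.54) in Lgr5-low control libraries. The count of 0 was in Lgr5-high cystine replicate 2, where it allows up to 0.886 CPM. At 0 to 95 counts per library, Ciita was the member with the widest spread on the log2 scale.

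**Figure D1:**
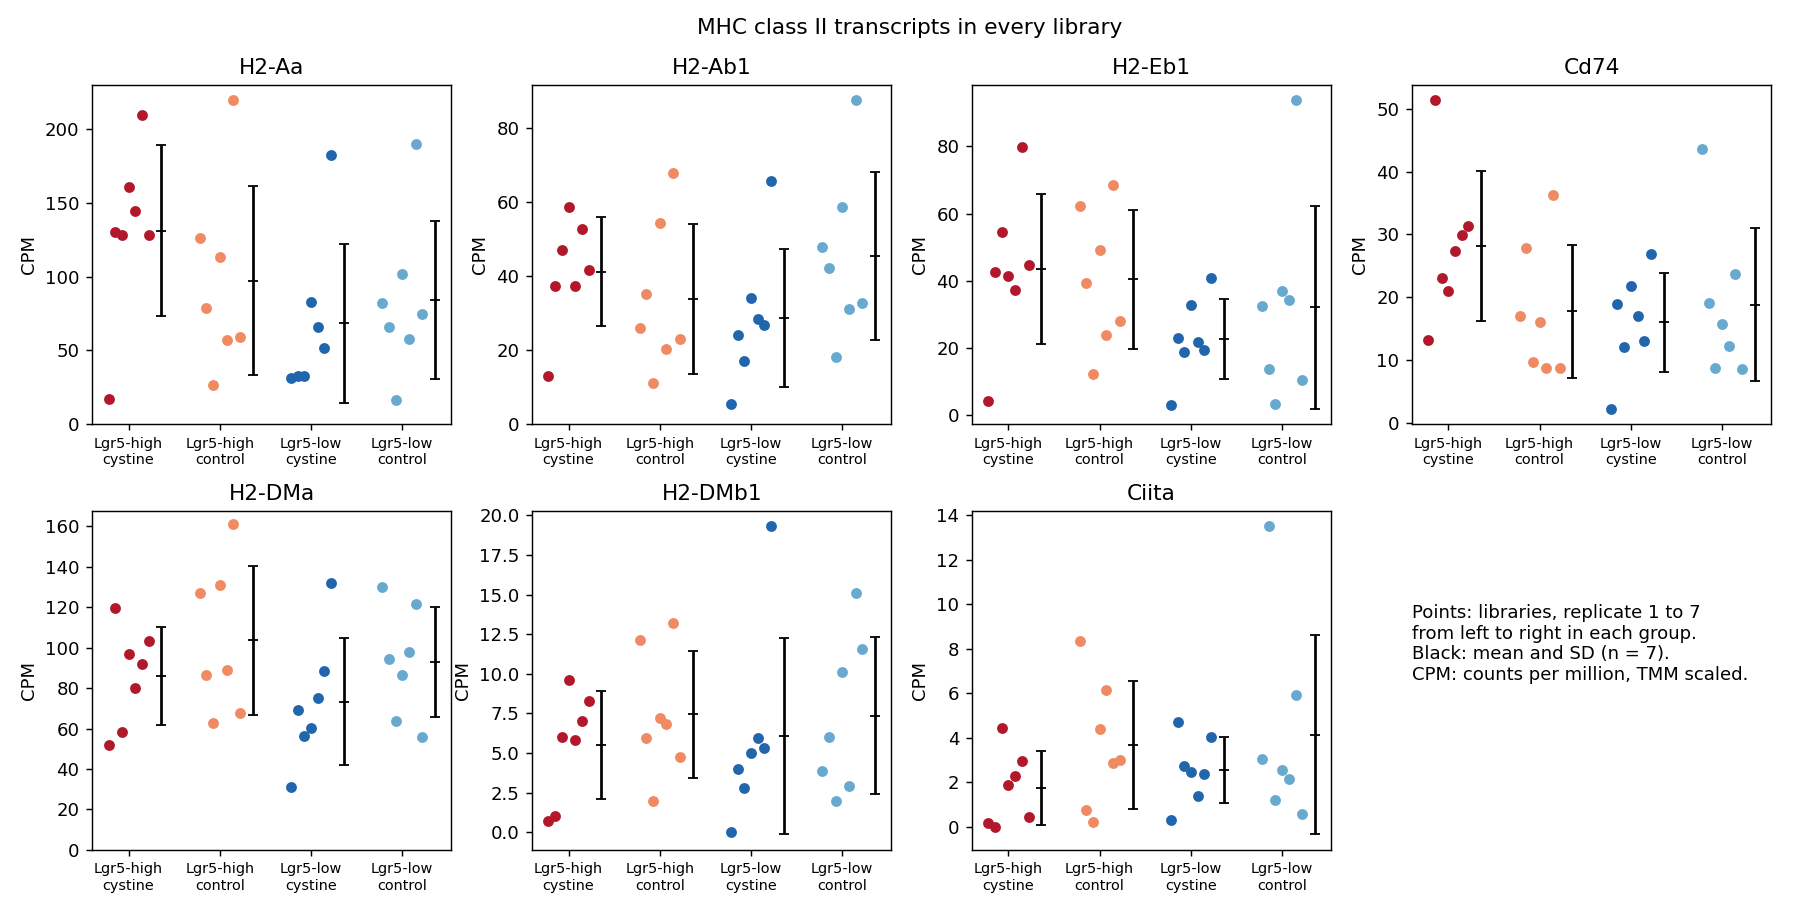
Level of each MHC class II gene in CPM (vertical axis) in the 7 libraries of each group (horizontal axis), with mean and SD in black. In every gene the 4 groups overlap, and Lgr5-high cystine replicate 1, the leftmost point, is among the lowest of its group.

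Cystine against control diet in Lgr5-high cells is the comparison nearest to the study's title, which ties dietary cysteine to stemness. None of the 7 genes passed: edgeR's quasi-likelihood test called 0 of 7, where it called 0.168% of all 12495 tested genes, and 0 of 7 had an unadjusted p under 0.05 (535 of all tested genes did). DESeq2 and limma-voom also called 0 of 7. The chains and Cd74 had positive and the DM subunits and Ciita negative log2 fold changes (median 0.10 over the 7, against -0.02 over all tested genes). Cd74 averaged 28.2 ± 11.9 CPM on cystine diet and 17.8 ± 10.6 CPM on control diet (SD, n = 7 each), a log2 fold change of 0.65 with a 95% interval of -0.13 to 1.43 (edgeR adjusted p = 1). H2-Aa differed by 0.43 (interval -0.63 to 1.49), an interval that holds both a lower level and one over 2-fold higher. Ciita averaged 1.74 ± 1.65 CPM on cystine diet and 3.68 ± 2.89 CPM on control diet, a difference of -1.08 (interval -2.64 to 0.48). H2-DMa was the most closely measured, at -0.27 (interval -0.76 to 0.22).

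In Lgr5-low cells the same comparison gave negative log2 fold changes for all 7 genes, with a median of -0.34 against -0.004 over all tested genes, and none passed. Without Lgr5-low control replicate 6 the values of H2-Aa, H2-Eb1 and H2-DMb1 were positive (0.045, 0.053 and 0.016), and without Lgr5-low control replicate 1 that of Cd74 was 0.13. Called were 0 of 7 members in edgeR, where 0% of all 12495 genes were called, and 0 of 7 had an unadjusted p under 0.05 (2.97% of all genes). DESeq2 and limma-voom called 0 of 7. H2-Ab1 averaged 28.75 ± 18.7 CPM on cystine and 45.4 ± 22.7 CPM on control diet (SD, n = 7 each), a log2 fold change of -0.65 (interval -1.48 to 0.17). H2-Eb1 averaged 22.7 ± 11.9 against 32.1 ± 30.2 CPM (-0.50, interval -1.68 to 0.68). The 7 genes share their libraries and move together in them, so their common sign is not 7 separate observations.

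The diet effects were not shown to differ between the populations. The difference, Lgr5-high minus Lgr5-low, was called for 0 of 7 members and for 0% of all tested genes in edgeR, and 0 of 7 members had an unadjusted p under 0.05 (3.32% of all genes did). DESeq2 and limma-voom called 0 of 7. The largest were H2-Ab1, 0.92 (interval -0.24 to 2.09), and Cd74, 0.88 (interval -0.22 to 1.98).

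Between the populations on cystine diet, the chains and Cd74 had higher means in Lgr5-high cells, and none passed. H2-Aa averaged 131 ± 58.0 CPM in Lgr5-high and 68.3 ± 53.9 CPM in Lgr5-low libraries (SD, n = 7 each; log2 fold change 0.93, interval -0.14 to 2.003, edgeR adjusted p = 0.41). Cd74 averaged 28.2 ± 11.9 and 16.0 ± 7.90 CPM (0.79, unadjusted interval 0.013 to 1.57, edgeR adjusted p = 0.311) and was the 1 member of 7 with an unadjusted p under 0.05, as were 15.5% of all tested genes. edgeR called 0 of 7, against 2.64% of all tested genes (1.1% higher and 1.54% lower), and DESeq2 and limma-voom 0 of 7. The median over the 7 was 0.50, against -0.04 over all tested genes.

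On control diet no class II difference between the populations was detected. edgeR called 0 of 7 members, against 1.8% of all tested genes (0.784% higher and 1.02% lower), 0 of 7 had an unadjusted p under 0.05 (12.9% of all genes did), and DESeq2 and limma-voom called 0 of 7. The median log2 fold change was 0.004, against -0.01 over all tested genes. H2-DMa averaged 103.6 ± 36.7 CPM in Lgr5-high and 92.9 ± 27.3 CPM in Lgr5-low libraries (0.16, interval -0.33 to 0.65). H2-Aa differed by 0.21 (interval -0.85 to 1.27) and H2-Ab1 by -0.42 (interval -1.24 to 0.40). These intervals are wide, so the test does not show that the levels are alike. The same test on the same libraries found 98 genes higher in Lgr5-high cells.

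**Figure D2:**
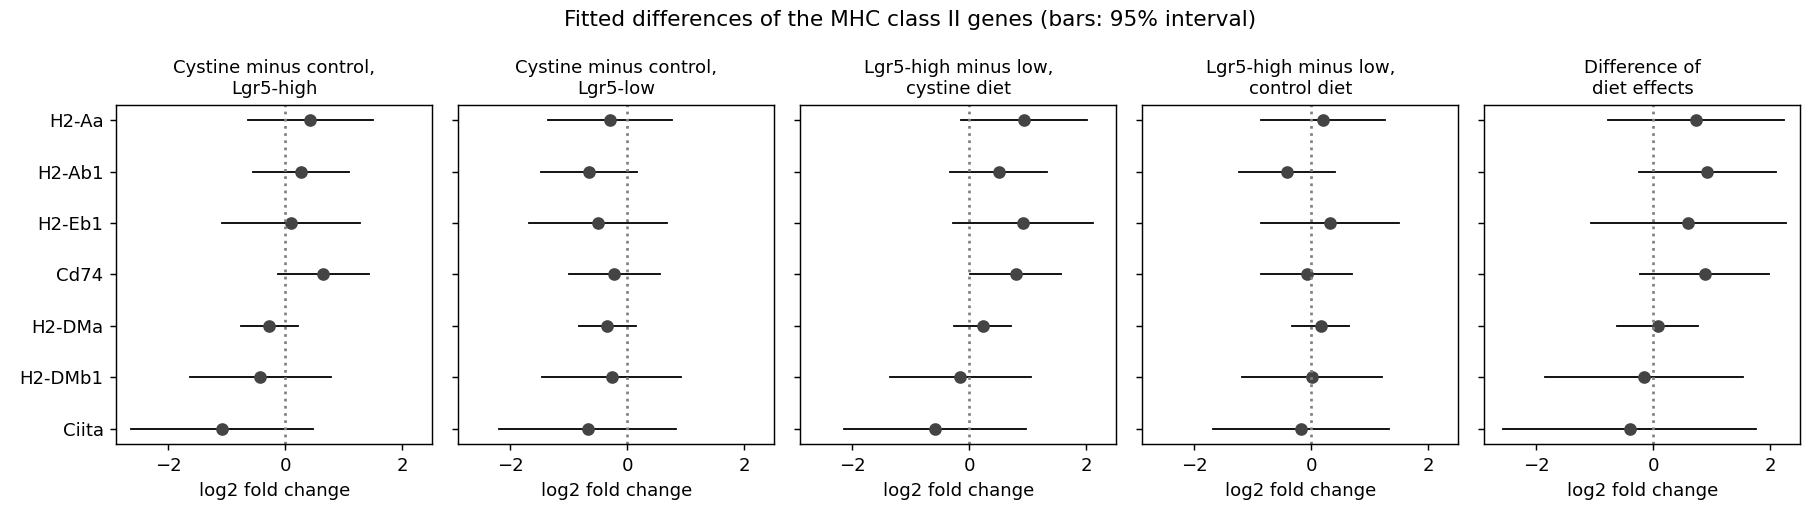
Log2 fold change (horizontal axis) of each class II gene (vertical axis) in the 5 comparisons, with 95% intervals as bars. The intervals include 0 except that of Cd74 between the populations on cystine diet, which begins at 0.013 before adjustment, and they are narrowest for H2-DMa and widest for Ciita.

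No class II difference between the groups passed the threshold, and within the groups the class II genes varied together. Their within-group SDs exceeded those of 25.1% (H2-DMa) to 80.4% (Ciita) of tested genes, with H2-Ab1 and Cd74 at 49.2% and 49.3%. After each group's mean was subtracted, the log2 levels of H2-Aa, H2-Ab1 and H2-Eb1 correlated at 0.87 with each other over 28 libraries, and the 15 pairs of genes without Ciita at 0.59 to 0.87 (median 0.74). Ciita, whose product drives the others in antigen-presenting cells, correlated with them at 0.31 to 0.62. These are descriptions: the genes share library, depth and scaling, and Ciita has the fewest counts. Correlations between pairs of other genes are not given beside them.

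Libraries with the same diet and replicate number tended to deviate alike in both populations. On control diet, replicate 6 was the highest and replicate 3 the lowest library for H2-Aa, H2-Ab1, H2-Eb1 and H2-DMb1 in Lgr5-high and in Lgr5-low cells. H2-Ab1, for instance, had 67.8 CPM in Lgr5-high and 87.5 CPM in Lgr5-low replicate 6, and 11.0 and 18.0 CPM in replicate 3. On cystine diet, replicate 1 was the lowest library of both populations in 6 of 7 members, with 13.0 CPM of H2-Ab1 in Lgr5-high and 5.46 CPM in Lgr5-low cells. The highest library on cystine diet was never the same number (0 of 7 members).

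Over the 14 number-matched pairs, the deviations from the group means correlated with Pearson's r = 0.82 for H2-Ab1 (Spearman's rho = 0.69), 0.80 for H2-Eb1 (0.53), 0.75 for H2-DMa (0.67), 0.69 for H2-DMb1 (0.51), 0.66 for Cd74 (0.72), 0.64 for H2-Aa (0.64) and -0.01 for Ciita (-0.03). Over all tested genes the median r was 0.12 and the quartiles were -0.10 and 0.34. The values of the 6 genes other than Ciita exceeded 95.6% to 99.5% of them. High values were not particular to class II. The median r was 0.69 for the 7 class II genes and 0.81 for 6 Paneth cell markers. It was 0.51 for the stem cell and 0.42 for the enteroendocrine markers, but 0.11 for the class I genes and -0.14 for the macrophage genes. In a two-sided permutation test of the pairing within each diet, p was 5e-04 for H2-Ab1, 0.00235 for H2-DMa, 0.00352 for H2-Eb1, 0.00917 for H2-DMb1, 0.0122 for Cd74 and 0.0181 for H2-Aa (for rho 0.0087, 0.0144, 0.0649, 0.0717, 0.00581 and 0.0165). For Ciita p was 0.979 for r and 0.918 for rho. Adjusted by the Benjamini-Hochberg method over 12495 genes, none passed (permutation adjusted p of 0.114 to 0.304 for r in the 6 genes and 0.270 to 0.538 for rho), where 0% of all genes passed and 11.1% had an unadjusted p under 0.05.

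Without the 2 pairs whose Lgr5-low values lay farthest from the median, r was 0.88 for H2-Ab1, 0.73 for H2-DMa, 0.67 for Cd74 and 0.63 for H2-Aa, but 0.41 for H2-DMb1 and 0.37 for H2-Eb1, which thus rest on those libraries. Control replicate 3 and cystine replicate 1 are both in the male class. Among the 9 pairs of the female class, r was 0.72 for H2-DMa, 0.70 for Cd74, 0.57 for H2-Ab1, 0.46 for H2-Aa, 0.43 for H2-Eb1 and 0.33 for H2-DMb1, and the male class held too few pairs. The labels do not say whether a shared number marks 1 animal.

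**Figure D3:**
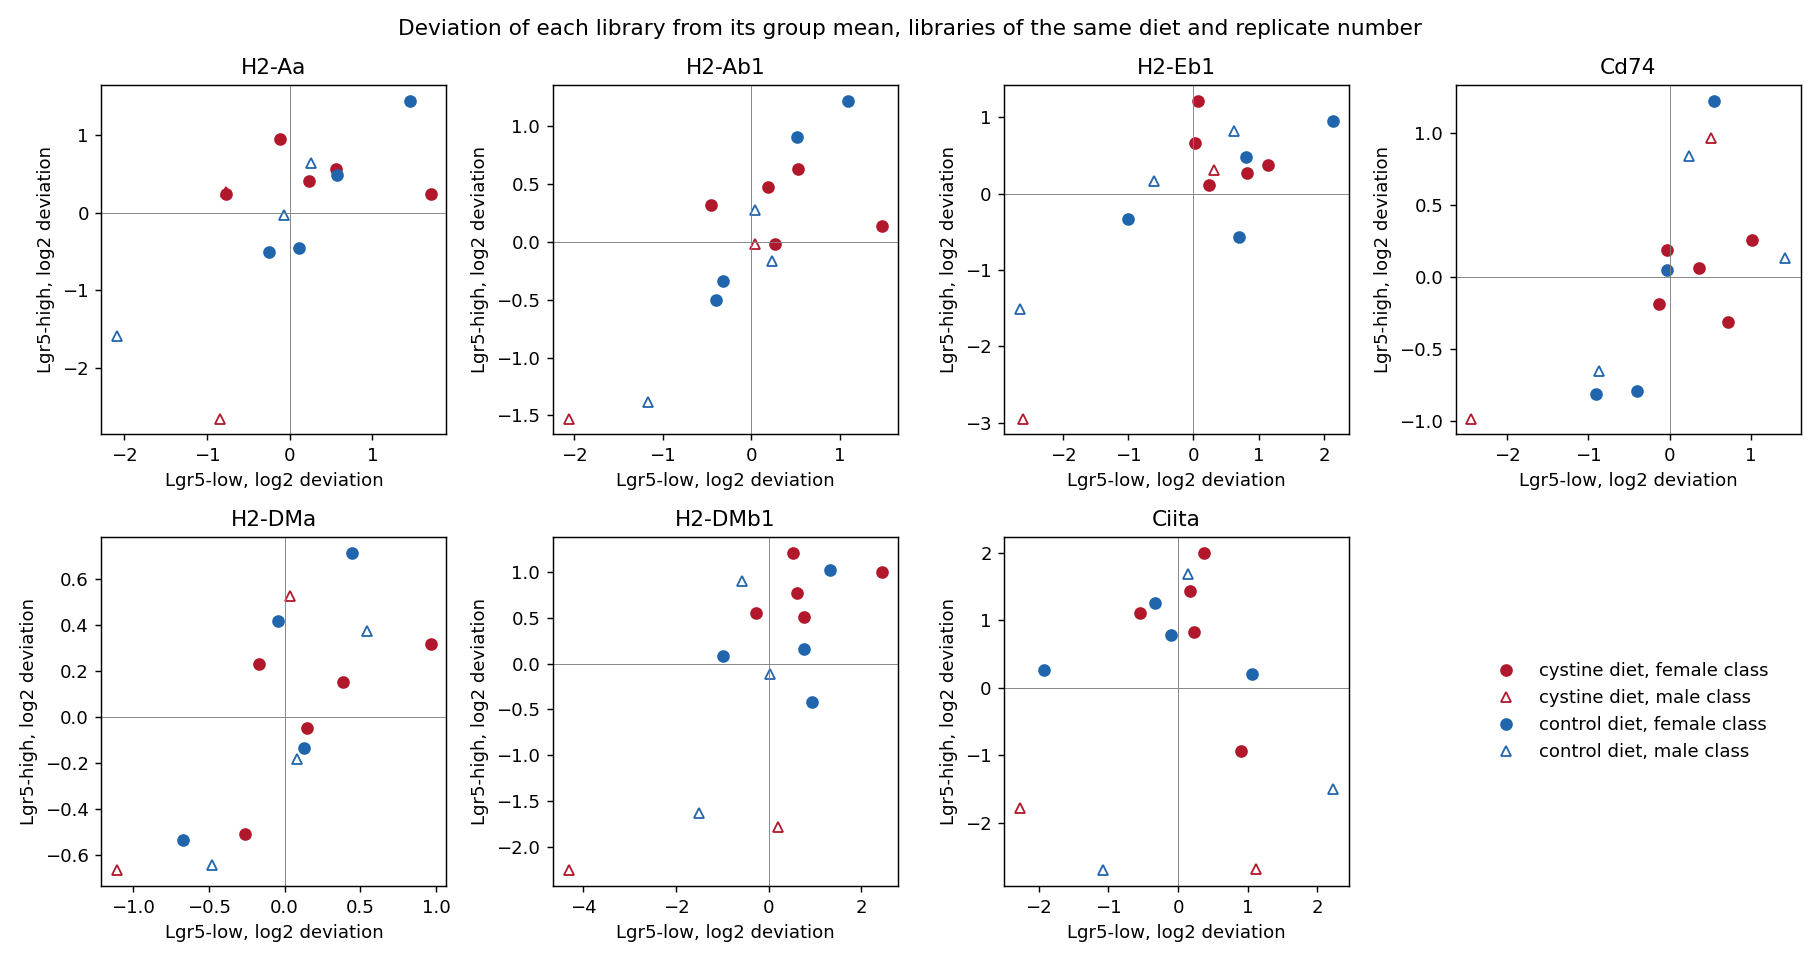
Deviation of the log2 level from its group mean in Lgr5-high (vertical axis) against Lgr5-low libraries (horizontal axis) of the same diet and replicate number, 14 pairs per gene. The points of H2-Ab1 and H2-DMa rise from lower left to upper right (r = 0.82 and 0.75), and those of Ciita do not (r = -0.01).

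The genes most like the mean of the 7 members in log2 level over the 28 libraries, with group means subtracted, were Rnf213, a large ubiquitin ligase (r = 0.81), the phospholipase Pnpla6 (0.77), Sdf2l1, a protein of the endoplasmic reticulum (0.77), the cation channel Trpm4 (0.77) and Psmb8, a subunit of the immunoproteasome (0.76). Rsrp1 (0.76), Tmtc2 (0.75), the ubiquitin ligase Dtx3l (0.74), Gclc, the catalytic subunit of glutamate cysteine ligase (0.74), and Mical2 (0.73) followed. Without subtraction of the group means, Pnpla6 (0.78) and Rnf213 (0.78) led as well. Of the interferon gamma list, the transcription factor Irf8 stood at 0.53 and Irf1, another of that family, at 0.14. Among class I genes, Tap1, a peptide transporter subunit, stood at 0.60 and B2m, the light chain, at 0.19.

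Other measures moved with the class II mean in the same way of reckoning. The summed stem cell markers correlated with it at -0.60 and the summed enteroendocrine markers at 0.67, over the 28 libraries with group means subtracted. Most of the stem cell sum is Olfm4, which alone stood at -0.60. Single stem cell markers ran from -0.60 (Cdca7) to -0.21 (Slc12a2), with Lgr5 at -0.23. Single enteroendocrine markers ran from -0.13 (Ghrl) to 0.63 (Chgb), so neither sum speaks for each of its genes. The summed class I genes stood at 0.54, the interferon gamma list at 0.47 and the goblet cell markers at 0.41. The mitochondrially encoded share of counts stood at -0.37 and the log2 total at 0.14. Their part in the class II levels was not tested.

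Macrophages carry class II, and their transcripts were higher on cystine diet in Lgr5-high cells, where 8 of 13 tested genes of a list of 14 were called higher by edgeR, against 0.168% of all tested genes. Recounted after seeing the data, DESeq2 called 12 of them and limma-voom 4, while edgeR called 5 without Lgr5-high control replicate 1, 4, 5 or 7, and 0 without libraries under 5 M counts or within the male class, with 13 of 13 fold changes positive in each. Between the populations on cystine diet, where the class II chains and Cd74 also had higher means in Lgr5-high cells, edgeR called 10 of 13 higher. Of all tested genes 1.1% were called higher there. On control diet it called 0 of 13 between the populations, against 0.784% of all tested genes called higher. These 2 counts were not repeated under the other settings. The list held Adgre1, Csf1r, Cd68, Fcer1g, Tyrobp, C1qa, C1qb, C1qc, Clec4f, Vsig4, Cd5l, Marco, Timd4 and Folr2. In Lgr5-high cystine libraries Clec4f had the highest mean of the list, 70.0 ± 45.1 CPM (SD, n = 7). In Lgr5-high control libraries it averaged 8.80 ± 2.61 CPM (SD, n = 7). Which kind of macrophage these transcripts come from was not tested. The list summed to 24.7 to 693 CPM in Lgr5-high cystine libraries (median 414), against 28.7 to 62.7 CPM in Lgr5-high control libraries (median 50.1). In Lgr5-low libraries the sum was 34.2 to 151 CPM on cystine and 12.5 to 84.1 CPM on control diet. The 7 class II genes summed to 100.4 to 474 CPM (median 358), 124.6 to 569.5 CPM (median 274), 73.25 to 471 CPM (median 207) and 113 to 537 CPM (median 254) in Lgr5-high cystine, Lgr5-high control, Lgr5-low cystine and Lgr5-low control libraries.

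With group means subtracted, the macrophage sum correlated with the mean log2 level of the class II genes at 0.13 over the 28 libraries, most of which hold few macrophage transcripts. Control replicate 6 had the highest class II sums of the Lgr5-high and of the Lgr5-low libraries, 569.5 and 537 CPM, beside 50.1 and 20.4 CPM of macrophage transcripts. Within Lgr5-high cystine libraries, replicate 1 was lowest in both, with 100.4 CPM of class II and 24.7 CPM of macrophage transcripts, and replicate 6, the highest in class II, had 474 and 647 CPM. Without Lgr5-high cystine replicate 1 the log2 fold change of Cd74 between diets in Lgr5-high cells was 0.75 (edgeR adjusted p = 0.9998). The part of macrophage transcripts in these values was not tested.

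Most markers of the other antigen-presenting cells were at or near 0, and Cd79b of the B cell list was not. Flt3, of dendritic cells, and Ms4a1 and Pax5, of B cells, had 0 counts in all 28 libraries, and the 10 dendritic cell genes summed to at most 4.282 CPM in any library. Of these 10, Zbtb46, Itgax and Itgae each had 0 counts in 17 libraries, and none of the 10 passed the filter on low counts. The 8 B cell genes summed to at most 10.9 CPM, of which Cd79b had the highest mean, 2.93 CPM. Cd79b had 0 counts in 3 libraries and was the 1 gene of the 8 that passed the filter. The highest dendritic cell sum was in Lgr5-low control replicate 6, which was also the highest of its group in class II, and over all libraries with group means subtracted this sum correlated with the class II mean at 0.46.

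**Figure D4:**
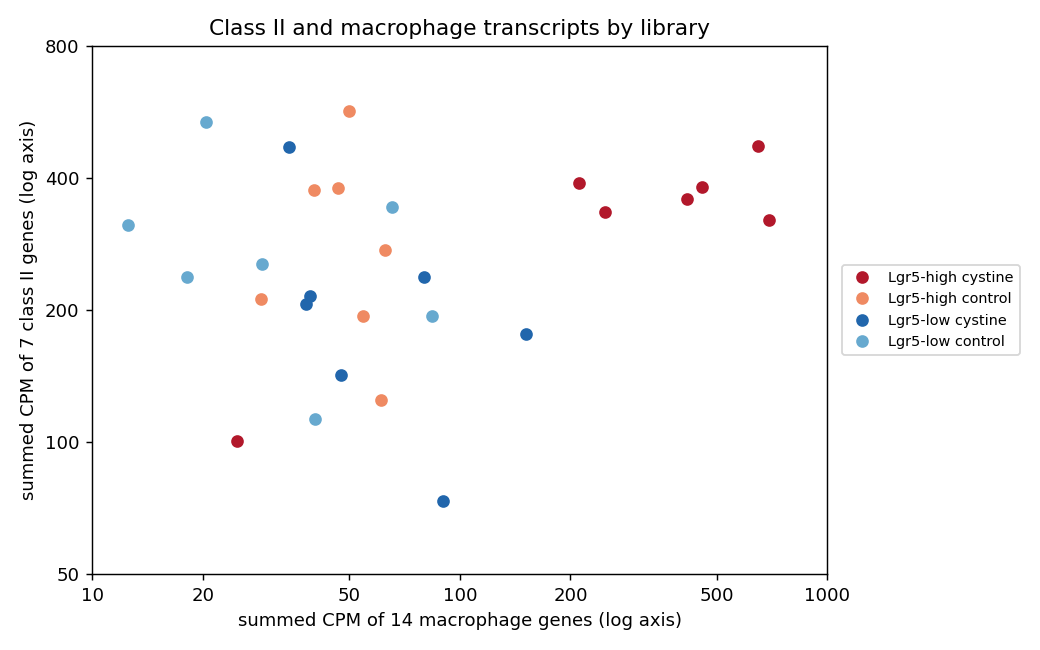
Summed CPM of the 7 class II genes (vertical log axis) against the summed CPM of 14 macrophage genes (horizontal log axis), 1 point per library. The Lgr5-high cystine libraries other than replicate 1 lie at 211 to 693 CPM of macrophage transcripts, to the right of all others, at class II sums of 321 to 474 CPM that libraries of the other groups also reach.

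Genes around class II were read from lists. Of the factors that bind class II promoters (Rfx5, Rfxap, Rfxank, Nfya, Nfyb, Nfyc and Creb1), 0 of 7 passed in any of the 5 comparisons in edgeR, and 1, 1, 1, 0 and 2 had an unadjusted p under 0.05 for diet in Lgr5-high cells, diet in Lgr5-low cells, the difference of diet effects, and the populations on control and on cystine diet. Of all 12495 tested genes, 535 had such a p in the first of these, and 2.97%, 3.32%, 12.9% and 15.5% in the others. Rfxank, another RFX subunit, had the lowest p of the list in the difference of diet effects, -2.19 (interval -3.69 to -0.69, edgeR adjusted p = 0.9998). It averaged 2.98 ± 1.39 CPM in Lgr5-high cystine and 5.37 ± 3.57 CPM in Lgr5-high control libraries, and 8.34 ± 3.67 CPM in Lgr5-low cystine and 3.13 ± 2.24 CPM in Lgr5-low control libraries (SD, n = 7 each). Rfx5, named here as the DNA-binding RFX subunit and not for its p, was low, with medians of 3.14, 2.73, 2.46 and 1.80 CPM in Lgr5-high cystine, Lgr5-high control, Lgr5-low cystine and Lgr5-low control libraries.

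Of 6 genes of endosomal antigen processing, 0 passed in any comparison in edgeR, and in the same order 2, 0, 1, 2 and 3 of the 6 had an unadjusted p under 0.05 (535 genes, 2.97%, 3.32%, 12.9% and 15.5% over all 12495). Ctss, cathepsin S, which trims the invariant chain, averaged 81.8 ± 29.3 CPM in Lgr5-high cystine libraries and 48.6 ± 12.7 CPM in Lgr5-high control libraries (SD, n = 7 each; log2 fold change 0.74, edgeR adjusted p = 0.365). Macrophages express it too. Ifi30, a thiol reductase of the endosome that reduces disulfide bonds of antigens, averaged 101 ± 20.6 CPM in Lgr5-high and 149 ± 34.7 CPM in Lgr5-low libraries on control diet (-0.56, edgeR adjusted p = 0.0739, under the threshold in 7 of 39 other settings). Of the class II turnover list, Marchf8 and Cd83 were tested, with 0 called in edgeR and 1, 0, 1, 1 and 2 of the 2 at an unadjusted p under 0.05, beside the same shares of all tested genes, 15.5% in the last.

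In the interferon gamma list 0 of 8 tested genes passed in any comparison in edgeR, with 0, 0, 0, 1 and 1 at an unadjusted p under 0.05, where 12.9% and 15.5% of all tested genes had one between the populations on control and on cystine diet. In the class I list 9 of 10 tested genes had negative log2 fold changes between the populations on either diet, with medians of -0.44 on cystine and -0.58 on control diet. Of these 1 passed on cystine diet and 0 on control diet in edgeR, with 5 and 6 at an unadjusted p under 0.05. Of all tested genes 2.64% passed on cystine diet and 1.8% on control diet, and 15.5% and 12.9% had an unadjusted p under 0.05. The 1 was Psmb10, an immunoproteasome subunit, at 70.3 ± 14.6 CPM in Lgr5-high and 105.9 ± 22.6 CPM in Lgr5-low libraries (-0.59, edgeR adjusted p = 0.0415). This call held under 20 of 39 other settings, with an adjusted p of up to 0.379. B2m went the other way on control diet, at 601 ± 186 CPM in Lgr5-high and 403.5 ± 149 CPM in Lgr5-low libraries (0.57, edgeR adjusted p = 0.175, under the threshold in 3 of 39 other settings). Between diets 0 of 10 class I genes passed in edgeR in either population, and 0 had an unadjusted p under 0.05.

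Of 6 genes of costimulation and checkpoint, which antigen-presenting cells use beside class II to instruct T cells, 1, Cd86, passed the filter on low counts. It averaged 4.15 ± 2.97 CPM in Lgr5-high cystine and 0.451 ± 0.268 CPM in Lgr5-high control libraries (log2 fold change 3.19, edgeR adjusted p = 0.244, under the threshold in 1 of 38 other settings, DESeq2, at 0.00358). Cd80, Cd40, Icosl, Cd274 and Pdcd1lg2 averaged under 1 CPM in every group.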

How the data were processed

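Gene-level estimated counts, given as whole numbers, were deposited by the authors for 28 libraries. Per the submitters' processing notes they come from Salmon 1.3.0 and the genome build mm10; annotation, trimming and gene summing: not given in the sources used here. Per the labels' protocols, a strand-keeping kit with poly(A) selection was used. Coordinates and exonic lengths came from GENCODE M21 (GRCm38), which held 94.8% of the identifiers. Rounded counts were tested with edgeR 4.0.16 in R 4.3.3 (quasi-likelihood, robust, TMM factors, filterByExpr, 1 mean per group over all libraries). Two-sided p-values were adjusted by the Benjamini-Hochberg method over 12495 genes, with 0.05 as the threshold. The 95% intervals use the fit's degrees of freedom and are not adjusted. DESeq2 1.42.0 and limma-voom (limma 3.58.1) were alternatives, and the fit was tested on simulated data. Correlations used log2 CPM with a prior count of 2. The class II genes, the lists and the comparisons were chosen with earlier results of these data known. Named were all 7 members, up to 4 genes of lowest p and any called gene in each list of genes around class II, and the 10 genes of at least 2 CPM most like the members' mean. Cell type markers were read as lists, and the genes called in those lists are not named one by one. Some results on single listed genes are not reported here.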

Additional observations from a re-analysis of the deposited data

Results flagged for a closer look

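In 5 of 28 sets of 7 libraries (7 genes in 4 groups) an extreme library stood apart from its group by Dixon's test. Chance alone gives this in about 1 of 20 sets of normally distributed values. Here the test used CPM without a log scale, and the genes share libraries and move together. The count of 5 can therefore not be set against that rate. H2-Aa was lowest in Lgr5-high cystine replicate 1 (17.1 CPM) and highest in Lgr5-low cystine replicate 7 (182 CPM), and H2-DMb1 was also highest in Lgr5-low cystine replicate 7 (19.3 CPM). H2-Eb1 was highest in Lgr5-low control replicate 6 (93.7 CPM). Ciita was highest in Lgr5-low control replicate 2 (13.5 CPM).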

How the results depend on the processing

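No class II member was called in any comparison under any of the settings tried, where the comparison could be made: RLE factors, DESeq2, limma-voom with sample weights, no filter, at least 1 CPM in 7 libraries, only the compared groups, a replicate block, a sex class term, within each sex class, without libraries under 5 M counts, and without each library in turn. Outside the leave-one-out series 361 fold changes of members kept their sign and 24 did not, and within it 945 did and 35 did not; the cause was not tested. With limma-voom these were H2-DMb1 (difference of diet effects 0.32, populations on control diet -0.28, on cystine diet 0.038) and H2-Aa (control diet -0.067). With at least 1 CPM in 7 libraries H2-DMb1 on control diet was -0.011. With a sex class term H2-Eb1 between diets in Lgr5-high cells was -0.15. Within the female class, Cd74 between diets in Lgr5-low cells was 0.25, the difference of diet effects -0.24 for H2-DMa and 0.25 for H2-DMb1, and the populations on control diet differed by -0.0644 for H2-Eb1, 0.20 for Cd74, 0.51 for Ciita and -0.31 for H2-DMb1. Within the male class H2-Aa and H2-Eb1 between diets in Lgr5-high cells were -0.12 and -0.77, the difference for H2-Eb1 -0.44, and on control diet H2-DMa was -0.069 and Marchf8, of the turnover list, 0.031. Without libraries under 5 M counts, H2-Eb1 between diets in Lgr5-high cells was -0.21, H2-DMb1 in Lgr5-low cells 0.056, and on control diet H2-Eb1 was -0.13, H2-DMa -0.010 and H2-DMb1 -0.050.

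Leaving out each library in turn gave ranges that cross 0 for diet in Lgr5-high cells (H2-Eb1 -0.13 to 0.28), diet in Lgr5-low cells (H2-Aa -0.78 to 0.045, H2-Eb1 -0.71 to 0.053, Cd74 -0.41 to 0.13, H2-DMb1 -0.92 to 0.016) and the difference of diet effects (H2-DMa -0.084 to 0.30, H2-DMb1 -0.44 to 0.50). They also did for the populations on control diet (H2-Aa -0.15 to 0.55, Cd74 -0.38 to 0.28, Ciita -0.54 to 0.46, H2-DMa -0.0064 to 0.26, H2-DMb1 -0.22 to 0.29) and on cystine diet (H2-DMb1 -0.38 to 0.49).

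Same-numbered libraries of both populations correlated over 12495 genes at -0.08 to 0.24, over 0.1 in 5 of 14 pairs, and 7 of 14 matched best with their own number. This is a hint of pairing in the data, but the labels give none and not every pair exceeded 0.1, so the block is an alternative only. With a replicate block 0 of 7 members were called in any comparison. Between the populations the block was diet and number together. For diet and the difference of diet effects it was the number alone, shared across diets. Same-numbered libraries of different diets correlated at -0.05 to 0.11 in Lgr5-high and -0.09 to 0.12 in Lgr5-low cells. Between the populations on cystine diet, the edgeR adjusted p was then 0.0602, 0.0734, 0.0666 and 0.0678 for H2-Aa, H2-Ab1, H2-Eb1 and Cd74. In this comparison 4 members had an unadjusted p under 0.05, against 1 without the block. Calls over all genes rose as well, from 330 to 453. Without the block 15.5% of all tested genes had an unadjusted p under 0.05, and the share with it is not given here. The rise is thus not shown to be particular to the members. H2-DMb1 was 0.16 there. The block of diet and number was also applied to the difference of diet effects, added after seeing the data, where H2-DMb1 was 0.055.

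Over all genes the counts of calls were 21, 0, 0, 225 and 330 for diet in Lgr5-high cells, in Lgr5-low cells, the difference, and the populations on control and cystine diet. They moved to 0 to 89, 0 to 4, 0 to 5, 31 to 800 and 108 to 910 under the other settings, and to 7 to 41, 0 to 0, 0 to 1, 124 to 456 and 169 to 413 without 1 library. Depth limits Ciita and H2-DMb1, each with 0 counts in 1 library.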
